A study of Mus musculus with 4 samples.

Results

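The odorant receptor genes Olfr763 to Olfr827 form a cluster on mouse chromosome 10, and their RNA was examined in cells lacking lamin B1. The genes were chosen by symbol alone, as Olfr followed by digits within this range, without use of any measured value. This rule found 54 genes among the 23337 gene symbols counted, out of 1100 odorant receptor symbols in all. Of the 54 genes, 28 exceeded 1 CPM (the count scaled to the total gene counts of the library) in at least 2 samples and could be tested.

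The RNA-seq samples were fluorescent (Tomato-positive) cells isolated from regenerating olfactory epithelium, each from a different mouse, with 2 mice per genotype. The mutant cells were Lmnb1-/- and the control cells were Lmnb1+/-, so the controls also lacked 1 copy of Lmnb1, a gene for a protein of the nuclear lamina. Cre recombinase was driven by the Keratin 5 promoter (K5Cre), which within this epithelium is active in horizontal basal cells, a reserve stem cell. Cre deleted the floxed Lmnb1 exon and switched on a red fluorescent reporter (R26Ai9) in those cells and in the cells they gave rise to. All mice were of mixed background, were given 50 mg/kg methimazole, which damages the epithelium, and recovered for 4 weeks. The tissue was a mosaic of recombined and unrecombined cells before sorting. The mice belonged to 2 experimental groups, G1 and G2, each with 1 control and 1 mutant that shared parents, age, sex, treatment and preparation. Per the design text, the groups differed from each other in treatment, parents, age and sex, which cannot be told apart from one another. Exact ages are not given per sample in the sources used here.

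Odorant receptors are membrane receptors that couple to the G protein Golf and adenylyl cyclase 3 in the cilia of olfactory sensory neurons. Each mature neuron transcribes a single receptor gene from a single allele, and most receptor genes are held in silent chromatin in any given neuron. The level of a receptor in bulk RNA therefore follows the number of neurons that chose it as well as the RNA each of them holds, and in these samples fewer cells of a type and less RNA per cell cannot be told apart.

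The cluster spans chr10:129011287-130211128 (GRCm38/mm10), a stretch of 1199842 bp in which all 54 genes lie. The largest gap between neighbouring genes is 52303 bp. Of the genes, 24 lie on the plus strand and 30 on the minus strand. Each has an uninterrupted coding sequence of 927 to 969 bases in 1 exon. By their family names in RefSeq, 53 of the genes fall into 13 receptor families, the largest being MOR114 with 13 genes, MOR110 with 9 and MOR111 with 8. Olfr765 carries no family name.

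The coding sequences share a feature that the choice by symbol did not use. Receptors of this class carry a conserved stretch at the end of the third membrane-spanning helix. It was located as the most frequent word of 6 codons that begins with an AT codon, with N for any base at the last position of each codon, searched in the reading frame on the coding strand. In the cluster this word was ATNTCNTANGANCGNTAN, which occurred in 42 of the 54 genes (77.8%), compared with 6.92% of 1041 other receptor genes and 0 of 20734 other protein-coding genes of GENCODE M21. In the other receptor genes the most frequent word found in the same way was ATNGCNTANGANCGNTAN, which cannot match at the same position and occurred in 39.1% of them. Within the cluster it occurred in Olfr763 and Olfr796, the 2 genes of family MOR269. Neither word was found in 10 genes, which were Olfr784, Olfr819, 3 of the 5 genes of family MOR113 and all 5 genes of family MOR210. All 13 genes of MOR114 and all 8 of MOR111 held the first word, which began between bases 343 and 364 of the coding sequence. Each word was chosen for being frequent in its own set, so these shares are a description. The stretch is shown for the 3 receptors with the smallest p-values for genotype (Olfr820, Olfr805 and Olfr771) and for 3 receptors that differed between experimental groups (Olfr808, Olfr821 and Olfr770), with the word searched for in capitals. These and the pairs below were picked after their values were seen.
Olfr820 (chr10:130017687-130017746, plus strand): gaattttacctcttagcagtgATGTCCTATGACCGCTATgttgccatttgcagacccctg
Olfr805 (chr10:129723159-129723218, minus strand): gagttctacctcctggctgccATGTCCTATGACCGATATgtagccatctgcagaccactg
Olfr771 (chr10:129160602-129160661, minus strand): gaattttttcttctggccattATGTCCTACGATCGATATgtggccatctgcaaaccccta
Olfr808 (chr10:129767822-129767881, plus strand): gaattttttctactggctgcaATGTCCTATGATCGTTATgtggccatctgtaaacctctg
Olfr821 (chr10:130033952-130034011, plus strand): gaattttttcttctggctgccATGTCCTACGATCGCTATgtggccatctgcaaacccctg
Olfr770 (chr10:129133386-129133445, minus strand): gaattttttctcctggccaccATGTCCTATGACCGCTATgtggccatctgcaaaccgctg

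Many of the genes are close copies of a neighbour, which limits how 50 bp reads can be assigned. Of the 54 coding sequences, 33 were over 90% identical to another in the cluster, and the highest identity was 99.3%, between Olfr772 and Olfr773. Only 11 genes had no 50-base word in common with another annotated transcript, and in 9 genes over 50% of such words were shared. The next sequences are the 60-base stretches with the most differences in the pairs Olfr765 with Olfr767 (98.2% identical, 17 differing bases in all) and Olfr823 with Olfr824 (98.7% identical, 12 differing bases in all), with differing bases in capitals. Each stretch holds 3 differences.
Olfr765 (chr10:129046604-129046663, minus strand): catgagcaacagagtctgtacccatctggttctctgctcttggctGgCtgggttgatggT
Olfr767 (chr10:129079504-129079563, minus strand): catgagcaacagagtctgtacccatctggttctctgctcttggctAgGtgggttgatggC
Olfr823 (chr10:130112527-130112586, minus strand): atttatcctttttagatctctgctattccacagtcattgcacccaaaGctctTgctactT
Olfr824 (chr10:130126794-130126853, minus strand): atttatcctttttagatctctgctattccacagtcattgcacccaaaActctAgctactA

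Counts in the first pair did not move together. In the second pair both genes were higher in control 1 than in control 2, and they differed in mutant 2. Values of pairs of samples are given with the G1 sample first. Olfr765 had 0 and 27 counts in the controls and 13 and 9 in the mutants, whereas Olfr767 had 41 and 0 in the controls and 2 and 2 in the mutants. Olfr823 had 14 and 0 counts in the controls and 4 and 9 in the mutants, and Olfr824 had 47 and 2 and then 21 and 1. Olfr765 was thus highest in the control in which Olfr767 was at 0, and the controls were far apart for each of these 4 genes. The sum of Olfr765 and Olfr767 was 41 and 27 in the controls and 15 and 11 in the mutants, and that of Olfr823 and Olfr824 was 61 and 2, and 25 and 10. Reads aligned to both members of a pair were not counted, so each count covers only the reads that differ between copies.

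The libraries held 14833396 (mutant 2) to 23704638 (control 1) gene counts, where 3 counts, taken as detected, equal 0.127 to 0.202 CPM. Mutant 1 stood apart, with 39.4% of its uniquely aligned reads outside annotated genes compared with 22.1% to 24.9% in the others. It also had at least 3 counts in 101 of 240 vomeronasal and taste receptor genes (Vmn1r and Tas2r), taken here as background, compared with 6 to 18 in the others. The set was not silent, with sums of 157 and 70.2 CPM in the controls and 413 and 65.5 CPM in the mutants. In control 1, 232 of the 240 genes were at 0, so that a few genes carried the sum there. Control 1 stood apart in its low counts, since 3.22% of its genes with any count had 1 to 5 counts, compared with 7.53% to 11% in the others. For Lmnb1 itself, counts over the whole gene were 477 and 395 in the controls and 326 and 149 in the mutants (log2 fold change -0.72, edgeR adjusted p = 0.195). Only 1 exon is deleted, and its part in these counts was not tested. By PCR of cDNA from sorted cells, the paper reported depletion of the Lmnb1 transcript in mutants.

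The summed RNA of the 54 receptors was similar in both G1 samples and lower in the mutant of G2. It amounted to 112 and 88.5 CPM in the controls and to 115 and 36.6 CPM in the mutants. Mutant 2 thus stood below the other samples, and mutant 1 lay close to control 1. The log2 ratio of mutant to control was 0.04 in G1 and -1.27 in G2, with a mean of -0.61 ± 0.93 (SD, n = 2 pairs). The G1 ratio was -0.05 with library sizes scaled by TMM factors and -0.02 after subtraction of background, so its sign was not resolved. The background estimate was above 0 in mutant 1 only, so the subtraction changed that library alone. Every exchange of the genotype labels gave a difference at least as large as the one observed (two-sided exact permutation test, p = 1 over the 4 samples and p = 1 within pairs, where the smallest values possible are 0.333 and 0.5). Whether the ratios of G1 and G2 differ could not be tested, because each rests on 1 mutant and 1 control.

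The other 1046 receptor genes showed nearly the same ratios. Their sums were 2149, 1635, 1997 and 663 CPM in control 1, control 2, mutant 1 and mutant 2, with log2 ratios of -0.11 in G1 and -1.30 in G2. The 131 receptor genes of chromosome 9 gave -0.03 and -1.19, and the 62 of chromosome 19 gave -0.37 and -1.56. As a share of all odorant receptor counts, the chromosome 10 cluster held 4.95% (95% Wilson interval 4.77 to 5.14) and 5.14% (4.92 to 5.37) in the controls and 5.47% (5.26 to 5.68) and 5.24% (4.82 to 5.68) in the mutants. Both mutants were above both controls, by 0.52 percentage points in G1 and 0.1 in G2 (two-sided exact permutation p = 0.333 over 4 samples and 0.5 within pairs, the smallest values possible). The cluster makes up 4.91% of the receptor genes, so its share of the counts was close to its share of the genes in every sample. Without the receptor with the highest counts the differences were 0.64 and 0.34 points. Over the 14 receptors with under 5% shared 50-base words, a choice made after seeing the data, the differences were 0.55 points in G1 and -0.31 in G2, so the direction in G2 turned.

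**Figure D1:**
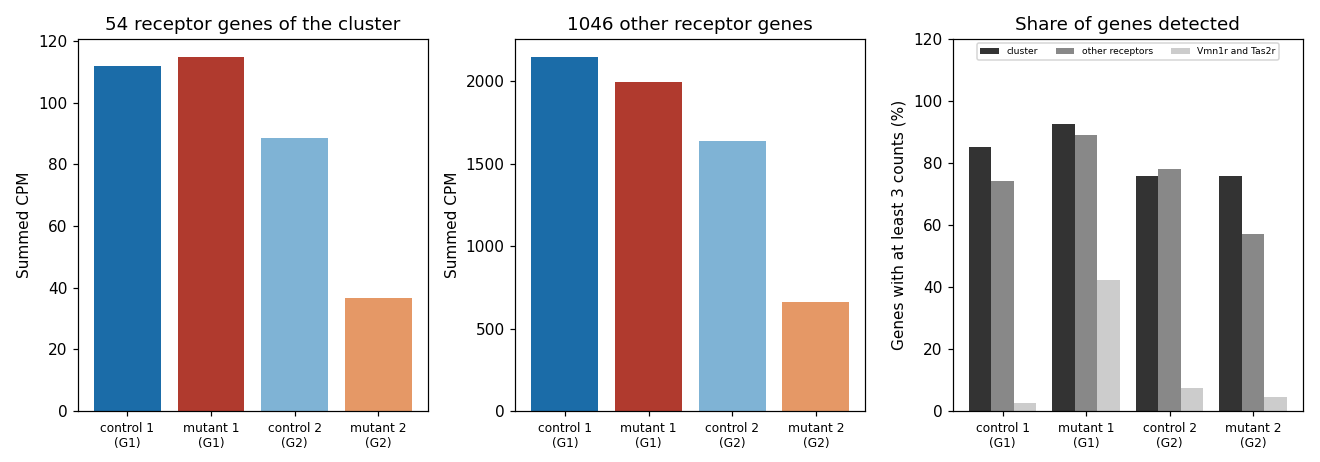
Summed CPM of the 54 cluster genes (left) and of 1046 other receptor genes (middle), and the percentage of genes with at least 3 counts (right), by sample, with 1 mouse per bar and no error bars. Mutant 2 has the lowest sum in both gene sets (36.6 and 663 CPM), and Vmn1r and Tas2r genes reach 42.1% detected in mutant 1.

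The receptor counts were also set against Omp, a protein of mature olfactory neurons that is used as their marker. Omp was at 9434 and 3207 CPM in the controls and 5580 and 907 CPM in the mutants (log2 fold change -1.35, SE 0.35, edgeR adjusted p = 0.00714). For each 1000 counts of Omp, the cluster had 11.9 and 27.6 counts in the controls and 20.7 and 40.3 in the mutants. The ratio was higher in the mutant than in the control of both groups, and each G2 sample exceeded the G1 sample of its genotype. The other receptor genes had 228, 510, 358 and 730 counts for each 1000 of Omp, in the same order of samples. All 10 genes of a mature neuron list were lower in mutants, with summed levels of 16888 and 7448 CPM in controls and 9961 and 2194 CPM in mutants. The part of this list in the receptor values was not tested.

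In every sample most of the 54 receptors were detected. At least 3 counts were found for 46 and 41 receptors in the controls and for 50 and 41 in the mutants. The other receptor genes were detected at 74.2%, 78.2%, 88.9% and 57.2%, and the cluster at 85.2%, 75.9%, 92.6% and 75.9%, in the same order. After all libraries were thinned to 14833396 counts, 45, 39, 49 and 41 receptors remained detected. Mutant 1 was the only sample with a count in all 54 genes, and 42.1% of the Vmn1r and Tas2r genes were also detected there, compared with 2.5% to 7.5% in the other samples. Subtraction of that background left 47 receptors detected in mutant 1. In control 1 the receptors were either at 0 (8 genes) or at 6 counts or more, whereas 6, 7 and 17 receptors had 1 to 5 counts in control 2, mutant 1 and mutant 2. A count of 0 in control 1 allows a level of up to 0.127 CPM by counting error alone.

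Olfr773 and Olfr819 were the scarcest receptors. Both had 0 counts in control 1, control 2 and mutant 2, and 2 and 10 counts in mutant 1. No receptor was at 0 in both samples of a genotype with 3 or more counts in both of the other. Per kilobase of coding sequence, the highest level was that of Olfr820 in control 1 (9.7 CPM per kb), control 2 (13.9) and mutant 2 (3.81), and that of Olfr821 in mutant 1 (13.9). Olfr788 came next in each sample, with 9.65, 10.6, 8.59 and 3.24 CPM per kb in control 1, control 2, mutant 1 and mutant 2. Olfr788 and Olfr820 lay within a few percent of each other in control 1, so their order there is not resolved. The 5 highest receptors held 32.3%, 44.6%, 35.5% and 31.5% of the counts of the cluster.

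**Figure D2:**
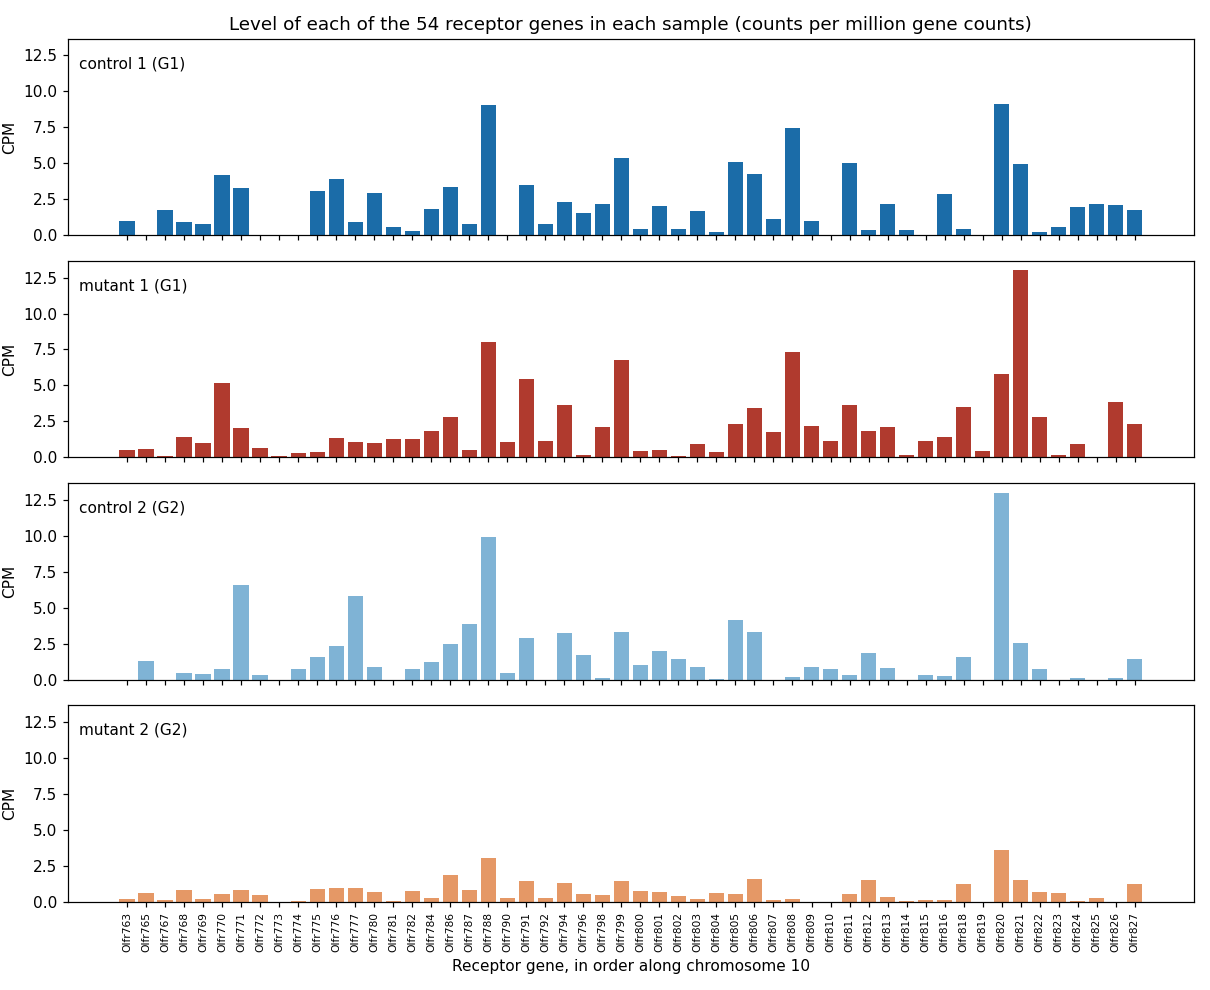
Level (CPM) of each of the 54 receptor genes in order along chromosome 10, with 1 panel per sample. Olfr788 and Olfr820 are among the highest bars in every sample, Olfr821 is highest in mutant 1 (13 CPM), and Olfr808 is prominent only in the 2 G1 samples (177 and 163 counts, compared with 4 and 3).

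In the test of genotype, no receptor of the cluster passed the threshold of 0.05 for the adjusted p in either direction (0 of 28, edgeR likelihood-ratio test with experimental group in the model). Among all 15438 genes tested, 4.30% were lower and 1.28% were higher in mutants. Of the 461 other receptor genes tested, 34 (7.38%) were lower and none was higher. At an unadjusted p under 0.05, 3 receptors of the cluster were lower (Olfr820, Olfr805 and Olfr771) and 0 were higher, compared with 9.62% and 6.32% of all genes and 21.9% and 0% of the other receptor genes. The quasi-likelihood test also called 0 of 28 and gave the same 3 receptors at an unadjusted p under 0.05. DESeq2 gave the same 3 at that level and no adjusted p for any of the 28. The standard errors of the log2 fold changes ran from 0.48 for Olfr820 to 1.54 for Olfr807, so only changes of several times these errors could have passed at this depth and number of samples.

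Olfr820, the only receptor of family MOR116 in the cluster, had 216 and 279 counts in the controls and 129 and 53 in the mutants. Both mutants were below both controls, and the log2 ratios were -0.73 in G1 and -1.86 in G2. Its log2 fold change was -1.30 (SE 0.48, edgeR adjusted p = 0.104). Olfr805 (MOR110) had 121 and 88 counts in the controls and 52 and 8 in the mutants. It was lower in each mutant, and its log2 fold change was -2.0 (SE 0.74, edgeR adjusted p = 0.121), while 37.5% of its 50-base words were shared with other transcripts. Olfr771 (MOR114) had 78 and 141 counts in the controls and 45 and 12 in the mutants (log2 fold change -1.86, SE 0.74, edgeR adjusted p = 0.183). Neither Olfr820 nor Olfr771 shared a 50-base word with another transcript.

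In 8 of the 28 tested receptors both mutants lay below both controls, compared with 10.6% of all genes tested and 38.4% of the other receptor genes. No receptor of the cluster had both mutants above both controls, which 15.2% of all genes did. Of the 8 receptors, 3 (Olfr775, Olfr796 and Olfr801) had exceeded 1 CPM in the controls alone, so that they were tested only because they were high there. With no filter, 9 of the 54 receptors had both mutants below both controls and 2 had both above, compared with 8.30% and 15.7% of the 21975 genes with any count. Besides the 3 receptors above, the 8 were Olfr775, Olfr776, Olfr788, Olfr796 and Olfr801. Olfr796 (MOR269) had 36 and 37 counts in the controls and 4 and 8 in the mutants, the lowest log2 fold change of the cluster at -2.38 (SE 1.19, edgeR adjusted p = 0.325). Olfr775 (MOR111) had 73 and 33 counts in the controls and 8 and 13 in the mutants, with a log2 fold change of -1.98. Its neighbour Olfr776, 96.1% identical to it, had 92 and 50 in the controls and 30 and 14 in the mutants. The samples of these 2 genes kept the same order by genotype, and their sum was 165, 83, 38 and 27 counts. Olfr788 (MOR111) had 214 and 212 counts in the controls and 178 and 45 in the mutants, so that mutant 1 was close to the controls (log2 fold change -0.97, SE 0.50). Olfr801 (MOR110) had 48 and 43 counts in the controls and 11 and 10 in the mutants.

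The median log2 fold change of the 28 tested receptors was -0.55, compared with -0.98 for the other receptor genes and -0.01 for all genes tested. Of the 28, 21 had a fold change below 0, compared with 383 of the 461 other receptor genes and 7884 of all 15438 genes. The median log2 ratio was -0.13 in G1, where 16 receptors were below 0, and -1.03 in G2, where 24 were. In G1 and G2, 309 and 394 of the 461 other receptor genes were below 0, and 8225 and 7709 of all 15438 genes. A lower value in both mutants was seen for 13 receptors, a higher value in both for 1 (Olfr807), and opposite signs for 14. Of the 14, 11 were higher in mutant 1 and lower in mutant 2, and 3 (Olfr798, Olfr808 and Olfr811) the reverse. Among the 461 other receptor genes, 274 were lower in both mutants and 30 higher in both, while 120 and 32 had opposite signs in these directions. Among all 15438 genes the numbers were 5085, 4587, 2622 and 3134. With either group alone the median of the 28 tested receptors kept its sign (-0.13 in G1 and -1.03 in G2). Over all 54 receptors the median log2 ratio was 0.03 in G1, where 26 were below 0, and -0.58 in G2, where 38 were. With no filter on low counts the median log2 fold change of the 54 was -0.13. When 1 library was left out, experimental group was also dropped from the model, and the median was then 0.36 without mutant 2 and -1.52 without mutant 1 over the 18 receptors tested. Both changes were made at once, and the part of each was not separated.

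**Figure D3:**
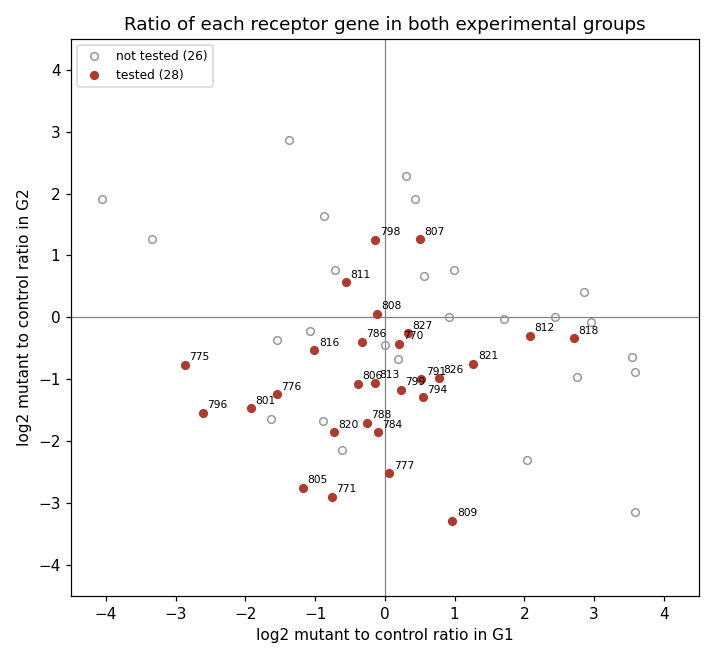
The log2 mutant to control ratio of each receptor gene in G1 (horizontal) and G2 (vertical), with prior count 2, for 28 tested (filled, labelled by the number in the symbol) and 26 untested genes (open). Each axis rests on 1 mutant and 1 control. Of the tested genes, 13 lie below 0 on both axes and 1 lies above 0 on both.

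The receptors with the highest fold changes did not separate the genotypes. Olfr821, the only MOR109 gene, had 118 and 54 counts in the controls and 288 and 22 in the mutants. Mutant 1 was the highest and mutant 2 the lowest of the samples, with log2 ratios of 1.27 and -0.75 (log2 fold change 0.32, SE 0.61, edgeR adjusted p = 0.903). Olfr818 (MOR110) had 10 and 33 counts in the controls and 78 and 18 in the mutants, with log2 ratios of 2.71 and -0.34. Olfr812 (MOR110) had 8 and 39 in the controls and 41 and 22 in the mutants, with log2 ratios of 2.08 and -0.30. For both, control 1 was the lowest sample. Mutant 1 was the highest for Olfr818, whereas for Olfr812 mutant 1 and control 2 were not resolved (1.85 and 1.82 CPM). Olfr807 (MOR117) had 27 and 0 counts in the controls and 39 and 2 in the mutants. Olfr798 (MOR108) had 52 and 3 in the controls and 47 and 7 in the mutants. These 2 genes were low in G2 in both genotypes. The fitted log2 fold change of Olfr807, 1.42 (SE 1.54), depends on the prior count because control 2 was at 0.

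Among the other receptors of high level, Olfr799, Olfr791 and Olfr794, all of family MOR114, resembled each other. Olfr799 had 128 and 70 counts in the controls and 150 and 21 in the mutants. Olfr791 had 83 and 62 in the controls and 120 and 21 in the mutants. Olfr794 had 55 and 69 in the controls and 81 and 19 in the mutants. Each was highest in mutant 1 and lowest in mutant 2. Olfr777 (MOR114) departed from them, with 22 and 124 counts in the controls and 23 and 14 in the mutants, so that control 2 alone was high. Olfr786 (MOR111) had 80 and 53 in the controls and 63 and 28 in the mutants, and Olfr806 (MOR110) had 100 and 71 in the controls and 76 and 23 in the mutants. In both, the mutant of each group was below its own control and the genotypes overlapped.

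Summed over families, MOR111, MOR269 and MOR116 had lower levels in both mutants than in either control, and MOR114 and MOR110 did not. MOR269 (2 genes) had 2.53 and 1.73 CPM in the controls and 0.722 and 0.742 CPM in the mutants. MOR116 (Olfr820 alone) had 9.11 and 13 CPM in the controls and 5.82 and 3.57 CPM in the mutants. MOR111 (8 genes) summed to 22.2 and 23.1 CPM in the controls and 14.4 and 8.22 CPM in the mutants, with log2 ratios of -0.62 and -1.47. MOR114 (13 genes) summed to 25.2 and 25.6 CPM in the controls and 29.9 and 9.37 CPM in the mutants. MOR110 (9 genes) summed to 19.5 and 15.2 CPM in the controls and 18.7 and 7.62 CPM in the mutants. The sum of the 5 genes of MOR210, at the distal end of the cluster, split by experimental group instead. It was 8.56 CPM in control 1 and 7.36 in mutant 1, compared with 1.64 in control 2 and 2.16 in mutant 2. Within MOR210, Olfr823 and Olfr825 did not follow this split. Olfr823 had 14 and 0 counts in the controls and 4 and 9 in the mutants, and Olfr825 was high in control 1 alone. The sum of the 4 genes of MOR108 also split by group, with 6.12 and 7.54 CPM in G1 and 1.78 and 1.08 CPM in G2. No test was made on families.

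Because several receptors followed the experimental group, the coefficient for that term was also tested in the same model, a test chosen after the values had been seen. Of the 28 receptors, 8 were lower in G2 than in G1 at an adjusted p under 0.05 and 0 were higher, compared with 14.0% of all genes lower and 17.7% higher. Of the other receptor genes, 82 of 461 (17.8%) were lower and 4 (0.868%) higher, so that most calls outside the cluster had the same direction. The 8 receptors were Olfr770, Olfr798, Olfr807, Olfr808, Olfr811, Olfr816, Olfr821 and Olfr826. In 16 of the 28 both G2 samples lay below both G1 samples (32.3% of all genes, 39.7% of the other receptor genes), and in 0 above (29.7% of all genes). The filter favoured this direction, since 9 of the 28 receptors exceeded 1 CPM in the G1 samples alone and 0 in the G2 samples alone. These 9 included 7 of the 8 receptors called, all but Olfr821, and counted among the 16. With no filter, 5 of 54 receptors were lower in G2 (Olfr770, Olfr808, Olfr811, Olfr821 and Olfr826), a share close to the 7.39% of all genes, and 0 were higher. Both G2 samples then lay below both G1 samples in 25 of the 54, compared with 27.1% of all genes and 33.5% of the other receptor genes, and above in 3, compared with 22.0% of all genes.

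Olfr808 (MOR112) showed this most clearly. It had 177 counts in control 1 and 163 in mutant 1, but 4 in control 2 and 3 in mutant 2. The G1 samples differed little from each other, and neither did the G2 samples. The log2 difference of G2 from G1 was -5.19 (SE 0.82, edgeR adjusted p = 7.65e-09, quasi-likelihood adjusted p = 0.0011), and the gene shares no 50-base word with another transcript. Olfr770 (MOR114) had 99 and 114 counts in G1 and 16 and 8 in G2 (log2 difference -2.81, SE 0.78, edgeR adjusted p = 0.0028). Olfr811 (MOR110) had 119 and 80 in G1 and 7 and 8 in G2 (log2 difference -3.29, SE 0.84, edgeR adjusted p = 0.00122). In these 3 receptors the control and the mutant of a group were closer to each other than to any sample of the other group. All 3 were picked for their group difference and were tested only because both G1 samples exceeded 1 CPM. Their closeness within a group follows in part from that choice and is a description.

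Olfr826 (MOR210), the penultimate gene of the cluster, had 49 and 85 counts in G1 and 2 and 0 in G2 (log2 difference -5.61, SE 1.44, edgeR adjusted p = 0.000297). The size of this difference depends on the prior count because mutant 2 was at 0. Of the 50-base words of Olfr826, 59.4% were shared with other transcripts. Its close copy Olfr825, 94.6% identical, had 52 and 0 counts in the controls and 1 and 4 in the mutants, and so was high in control 1 alone. Olfr816 (MOR113) had 67 and 32 counts in G1 and 5 and 2 in G2. Olfr826, Olfr816 and Olfr798 were tested only because both G1 samples exceeded 1 CPM. Their lower level in G2 follows in part from that filter and is a description. The difference of Olfr798 did not pass the quasi-likelihood test (adjusted p = 0.0773). In fits of experimental group alone, the receptors called lower were 1 of the 16 tested without control 1, 6 of 24 without control 2, 0 of 18 without mutant 1 and 4 of 28 without mutant 2, where 1 was also higher. Part of the fall comes from receptors such as Olfr808 that no longer passed the filter when a G1 sample was left out.

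**Figure D4:**
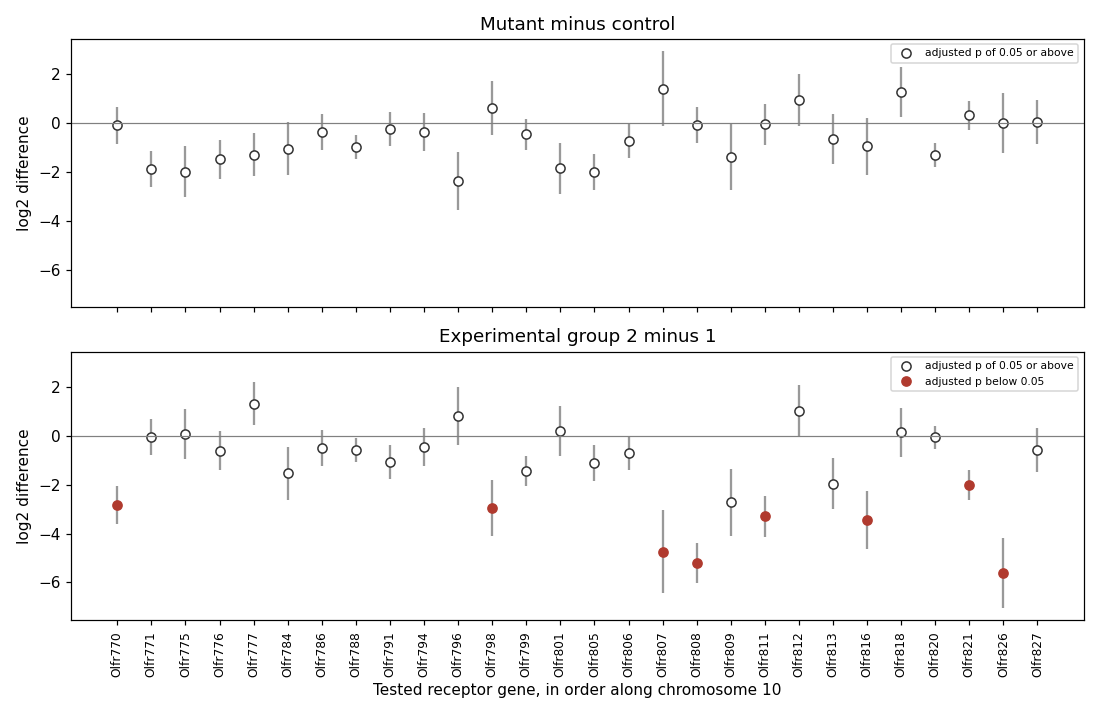
Coefficients of the 28 tested receptor genes for genotype (top) and experimental group (bottom), as log2 differences with standard errors (bars), in order along chromosome 10. No gene passes for genotype and 8 pass for experimental group, with Olfr826 (-5.61) and Olfr808 (-5.19) the lowest.

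The order of receptor levels was compared between samples as a description. Over the 54 genes, with levels taken as log2(CPM + 0.1), Pearson's r was 0.53 between control 1 and mutant 1 and 0.73 between control 2 and mutant 2. It was 0.39 between the controls and 0.43 between the mutants, and 0.47 for each of the other pairs of samples. The pairs within an experimental group thus had the highest values, and over the 1046 receptor genes outside the cluster they were 0.65 in G1 and 0.69 in G2, compared with 0.52 to 0.61 for the other pairs of samples. The genes share libraries and are not independent replicates.

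The lists of other cell types and of receptor regulators were followed beside the cluster, with no set test. The list of 22 genes for receptor choice and feedback shares Adcy3, Gnal and Rtp1 with the mature neuron list. Of the 22 genes, 6 were lower in mutants and 0 higher, compared with 4.30% and 1.28% of all genes tested. They were Ebf4, a transcription factor of olfactory neurons (log2 fold change -0.89), Eif2ak3, the kinase Perk of the unfolded protein response (-0.59), Adcy3, the adenylyl cyclase of olfactory cilia (-1.29), Gnal, which encodes Golf (-1.35), and Rtp1 and Rtp2, chaperones that bring receptors to the membrane. Lhx2 and Ldb1, which bind receptor enhancers, did not pass, with log2 fold changes of -0.28 and 0.16, nor did Emx2 (-0.48) or the receptor of the inner nuclear membrane Lbr (0.22). Of 8 immature neuron genes, 1 was lower (Dcx), with summed levels of 2996 and 2409 CPM in controls and 2555 and 2039 CPM in mutants. Of 8 progenitor genes, 4 were higher (Kit, Hes6, Mki67 and Top2a), with sums of 260 and 266 CPM in controls and 420 and 472 CPM in mutants. Of 6 horizontal basal cell genes, 2 were higher (Egfr and Krt15), with sums of 1933 and 1366 CPM in controls and 2918 and 1833 CPM in mutants.

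None of the 5 sustentacular genes and none of the 10 leukocyte genes passed, and 3 of 4 respiratory ciliated cell genes were lower. Sustentacular genes summed to 6534 and 11754 CPM in controls and 8542 and 15964 CPM in mutants, so that both G2 samples exceeded the G1 samples. Leukocyte genes summed to 690 and 789 CPM in controls and 376 and 837 CPM in mutants, but Lyz2, a lysozyme of myeloid cells, made up much of these sums (218 and 681 CPM in controls, 161 and 581 in mutants). The other 9 genes were lower in control 2 than in control 1, as for the macrophage genes C1qa (67.1 and 8.23 CPM) and Csf1r (63.8 and 7.81 CPM), and the median log2 ratio of the list was -1.59 in G1 and 1.10 in G2. Ciliated cell genes summed to 391 and 232 CPM in controls and 295 and 111 CPM in mutants. None of these lists was below the detection floor in all samples. With experimental group left out of the model, none of the genes named here as lower or higher passed. Their part in the receptor values was not tested.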

How the data were processed

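Tomato-positive cells from 4 mice were profiled by RNA-seq with single 50 bp reads after ribosomal RNA depletion. The authors deposited raw counts of reads for each symbol, obtained with HTSeq after alignment to mm10 with TopHat2 2.0.7 and removal of ribosomal reads with Bowtie2 2.0.6. Reads with more than 1 alignment were not counted, so near-identical receptors lose reads. The gene annotation and use of strand are not given in the sources used here. The 5 tally lines of each file were left out. Gene symbols were matched to RefSeq and GENCODE M21 (GRCm38/mm10), and all 54 receptors matched.

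Genes with CPM above 1 in at least 2 samples (15438) were fitted with edgeR 4.0.16 in R 4.3.3, with TMM factors, genotype and experimental group, the terms of the study's methods. The likelihood-ratio test was used with Benjamini-Hochberg adjustment over all genes. Standard errors are Wald errors of the fit. Levels and sums are CPM of the library total, and ratios within a group are log2 CPM with TMM factors and prior count 2. Shares carry 95% Wilson intervals, which, like the floor of 3 counts, cover counting error only, since reads carry no molecular identifiers. Experimental group pairs the samples, as the design text states, and same-numbered samples deviated together (correlation 0.635 over 15438 genes). The alternatives were the quasi-likelihood test, DESeq2 1.42.0, no replicate block, RLE factors and no filter. CPM above 1 in all 4 samples, thinning and leaving out each sample were also used. A background per kilobase, the trimmed mean of 240 Vmn1r and Tas2r genes, was subtracted in a further alternative. It was 0 in both controls and mutant 2 and 2.25 counts per kb in mutant 1, so the subtraction changed mutant 1 alone.

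Membership of the cluster used symbols alone, but this range of symbols and the gene lists were taken up for study with earlier results of these data known. Receptors named by rule are those past the threshold in any test of genotype and the 15 with the highest mean CPM. The rule also took the 5 lowest and 5 highest fold changes, those at 0 in 1 genotype, and the 2 highest levels per kb in each sample. Further receptors were named after their values were seen. Among them were Olfr816 and Olfr826 for their group difference, Olfr825 as a close copy, and Olfr773 and Olfr819 as the scarcest. Muc2 and Dnah5 of the marker lists had no row. On simulated counts for mutant against control (15134 genes, 200 of them changed by 2 on the log2 scale), the likelihood-ratio test recovered 100% with 2.44% false calls. The changed genes were drawn only from genes of higher level than most of the cluster, with the same dispersion for all genes. The simulation therefore says nothing of the power to detect changes in receptors of low level. The RefSeq windows ran from 250 bases before to 50 bases after the annotated start, which was the start codon in 42 of 43 windows. The transcript start of GENCODE lay over 250 bp upstream of the start codon in 53 of 54 receptors (median 3004 bp), so no promoter is shown. In the 43 such windows at hand, searched on both strands, CCCNNGGG occurred in 0% (3.22% of 901 other receptor windows), TAATTA in 20.9% (18.5%) and TATAAA in 55.8% (40.5%).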

Additional observations from a re-analysis of the deposited data

Results flagged for a closer look

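The log2 ratio of mutant to control had opposite signs in the experimental groups for 11 of the named receptors, and the difference was not tested, since each ratio rests on 1 mutant and 1 control. The ratio was above 0 in G1 and below 0 in G2 for Olfr770 (0.20 and -0.43), Olfr777 (0.06 and -2.52), Olfr791 (0.52 and -1.0), Olfr794 (0.54 and -1.29), Olfr799 (0.23 and -1.17), Olfr812 (2.08 and -0.30), Olfr818 (2.71 and -0.34) and Olfr821 (1.27 and -0.75). It was below 0 in G1 and above 0 in G2 for Olfr798 (-0.14 and 1.25), Olfr808 (-0.12 and 0.06) and Olfr811 (-0.56 and 0.57).

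Data outside the gene comparisons also set mutant 1 apart. Reads outside annotated genes made up 39.41% of its uniquely aligned reads, above the 23.76% and 24.88% of the controls. In the Vmn1r and Tas2r genes, mutant 1 had at least 3 counts in 101 of 240, above the 6 and 18 of the controls.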

How the results depend on the processing

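No receptor of the cluster passed the threshold for genotype under any alternative that gave an adjusted p, and DESeq2 gave none for these 28 genes. Fits without 1 sample held genotype alone, with no block, because a block then leaves no residual degree of freedom, so they change both choices at once. The median log2 fold change of the tested receptors, -0.55, ran from -1.52 to 0.36 in these fits, the latter without mutant 2. It was -0.13 with G1 alone and -1.03 with G2 alone. With no filter on low counts it was -0.13 over all 54 receptors. The log2 ratio of summed CPM was 0.04 with G1 alone and -1.27 with G2 alone. The G1 value turned to -0.05 with TMM factors and to -0.02 with background subtracted. With at least 10 counts asked for, 22 receptors were detected in mutant 2. Over all genes, 0 were lower and 6 higher with no replicate block, and 117 were higher by the quasi-likelihood test. Leaving out 1 sample left 0 to 5 lower and 3 to 33 higher genes. Receptors lower in G2 than in G1 numbered 5 with no filter on low counts and 0 to 6 when 1 sample was left out, and 0 to 1 were then higher.

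Of 231 values of log2 fold change for named receptors under alternatives, 16 turned in sign, in 10 receptors. With no replicate block these were Olfr770 (0.13) and Olfr791 (0.03), and with thinning Olfr811 (0.12). The fits without 1 sample and without the block gave ranges of -0.58 to 1.01 for Olfr770, -1.20 to 0.70 for Olfr791, -1.14 to 0.34 for Olfr794, -0.77 to 0.81 for Olfr798, -1.64 to 0.59 for Olfr799, -0.28 to 1.57 for Olfr807, -1.02 to 0.89 for Olfr808, -1.30 to 0.38 for Olfr811, -0.17 to 2.26 for Olfr812 and -1.37 to 1.74 for Olfr821. The cause was not tested. The genes named from the lists in the report as lower or higher in mutants did not pass with no block. Each experimental group alone gives no test. Depth limits receptors under about 1 CPM, and mutant 2 held 543 counts over all 54.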
